A study of Mus musculus with 9 samples.

Results

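The comparison described here sets whole-lung RNA of bleomycin-challenged mice treated with inhaled Cas9/gSting lipid nanoparticles against whole-lung RNA of mice given bleomycin alone. Its members are 6 of the 9 libraries of the series, chosen by their group labels: LNP replicates 1, 2 and 3 and bleomycin replicates 1, 2 and 3. All mice were wild-type C57BL/6 and all lungs were collected at day 21. The bleomycin group received bleomycin and no particle. The LNP group received bleomycin and inhaled lipid nanoparticles labelled mCas9/gSting@DOPS. Cas9 is a nuclease that a guide RNA directs to a matching stretch of DNA, and lipid nanoparticles are a vehicle that brings such RNA into cells. The 3 saline controls are printed beside the values as a reference level and are not part of the contrast, but they entered the filter on low counts, the scaling and the shared estimate of spread. Dose, number of inhalations and the interval between bleomycin and particle are not given in the labels. No group with a particle lacking the guide was analysed here, so an effect of the guide and one of the particle cannot be told apart. Whether each sample of a group is its own animal is not stated, so p-values reflect only the scatter among these samples.

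Bleomycin damages DNA and, when delivered to the airways, injures the alveolar epithelium. Neutrophils and monocyte-derived macrophages then enter the lung, and fibroblasts become contractile and lay down collagen. STING is an adaptor in the membrane of the endoplasmic reticulum. It is switched on by cyclic GMP-AMP, which the enzyme cGAS makes when it meets DNA in the cytosol, and it then drives type I interferon and NF-kB responses through the kinase TBK1. Macrophages are one of the cell types known to use this pathway, and the series title names them as the target of the particle.

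In LNP lung, genes of B cells (19 of 19 tested list members), T cells (18 of 22), MHC class II (9 of 10) and ciliated cells (15 of 18) were higher than in bleomycin lung, where 4.28% of all genes tested were called higher. The summed level of the ciliated list in LNP replicate 3, 1006 CPM, nevertheless lay within the bleomycin range of 929 to 1029 CPM. Genes of neutrophils (11 of 19) and immediate early genes (9 of 18) were lower, where 1.87% of all genes were called lower. Other lists changed when 1 library, LNP replicate 3, was left out. Of 15 alveolar type 2 genes, 0 were higher with it and 13 without it, when 14% of all genes were called higher. Of 20 collagens, 6 were lower with it and 15 without it, when 10.7% of all genes were called lower. Counts also moved when other libraries were left out. Without bleomycin replicate 2, 15 B cell and 7 T cell genes were higher, and 6 neutrophil genes and 0 collagens were lower.

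Gene counts summed to between 66185225 and 67234176 per bleomycin library and between 56047830 and 68882873 per LNP library. Mitochondrial transcripts made up 1.49% to 1.58% of the counts in bleomycin and 1.83% to 1.90% in LNP libraries, a gap between the groups whose part in the results was not tested. The chi-square per degree of freedom between gene counts was 133 for bleomycin replicates 1 and 3. Replicate 2 reached only 43.4 and 44.0 with them. It lay between them in many list sums, such as NF-kB inflammatory genes (2263, 1849 and 1485 CPM), but not in T cells (82.9, 77.4 and 82.4 CPM). Whether the bleomycin libraries are independent samples was not tested, and the p-values rest on it. On log2 CPM, LNP replicates 1 and 2 correlated across genes at r = 0.978, while LNP replicate 3 reached 0.933 with either of them and 0.943 to 0.955 with the bleomycin libraries. LNP replicate 3 also held skeletal muscle and squamous transcripts. The 6 genes with the largest ratio to the next library and at least 100 CPM there were Myh8 (1799 CPM), Mybpc1 (176 CPM), Myh1 (1407 CPM), Acta1 (3447 CPM), Tnnc2 (331 CPM) and Krt13 (866 CPM), and none of them passed 2.37 CPM in another library. Calls are therefore given with and without it, and so are fold changes of many genes called in both fits. For Cd209a and most genes called only without it, any fold change printed is from that fit alone. Lung identity held in every library, with the surfactant gene Sftpc between 3759.9 and 13418 CPM in all 6. CPM are counts relative to library totals, on sizes scaled by the TMM method.

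With all 9 libraries in one fit of edgeR's quasi-likelihood test, 891 of 20794 genes tested were called higher in the LNP group (4.28%) and 389 were lower (1.87%) at a Benjamini-Hochberg adjusted p under 0.05. Without LNP replicate 3, 2987 of 21373 genes were higher (14%) and 2297 lower (10.7%). These shares are the background for each list count below. All 891 and all 389 genes of the first fit were also called in the second in the same direction. The median log2 fold change over all genes tested was 0.04 with LNP replicate 3 and 0.01 without it. With 9 libraries, 5221 of the 20794 genes had an unadjusted p under 0.05, the background for each count of such genes below. Without any test, all 3 LNP values lay above all 3 bleomycin values in 15.4% of genes and below them in 14.5%, the background for each statement below that groups did not overlap. LNP replicates 1 and 2 alone lay above all bleomycin values in 31.4% of genes and below them in 29.7%. Those shares are the background where only these 2 libraries are set against bleomycin. The counts of calls also moved with other libraries. Leaving out 1 library other than LNP replicate 3 gave between 84 higher genes, without bleomycin replicate 2, and 814, without control replicate 2. The lower genes ran from 18, without bleomycin replicate 2, to 533, without control replicate 2. Of the 118 genes that the naming rule selected among those called with 9 libraries, 28 were called in each of the 9 fits that left out 1 library. Those reported here were Cd79a, Ms4a1, Blk, Pax5, Ighd, Igkc, Iglc2, Mzb1, Pou2af1, Cxcr5, Ltb, Cd3e, Trbc2, Lck, Lat, H2-DMb2, H2-Oa, H2-Ob, Dnase1l3, Car3, S100a8, S100a9, Retnlg, Stfa2l1, Trem1, Il1r2 and Adamts1. Fold changes after "or" come from the fit without LNP replicate 3. For other genes of the rule called with 9 libraries, the number of these 9 fits in which the gene was called is given as a count of fits.

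**Figure D1:**
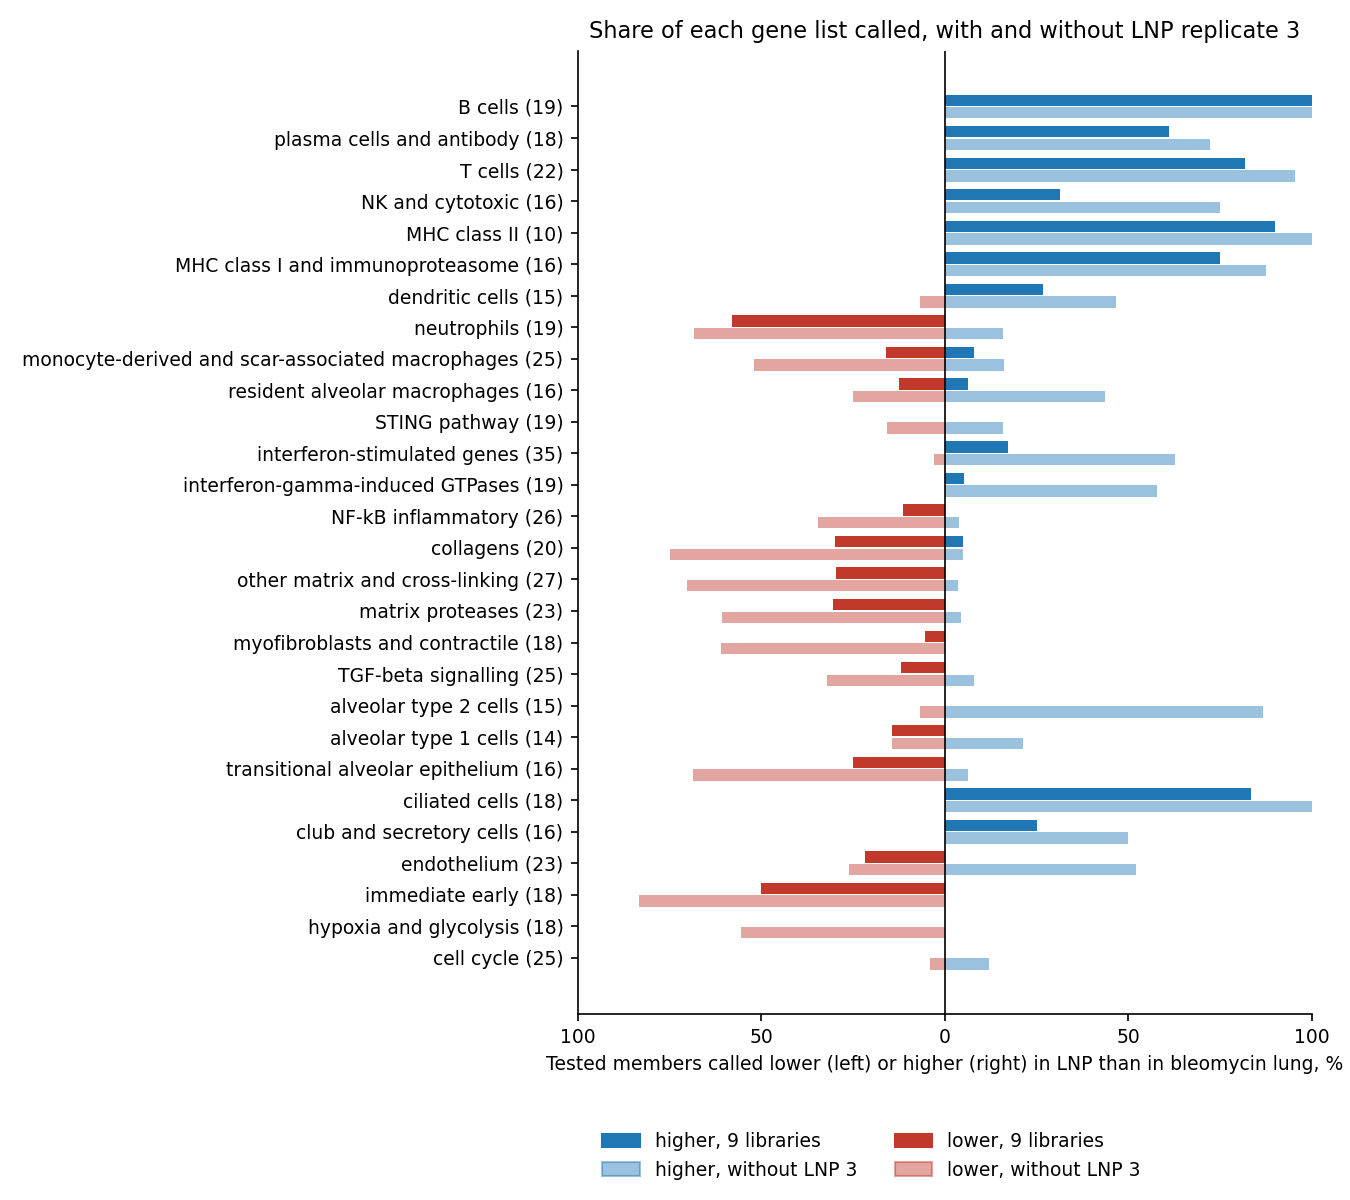
Share of the tested members of 28 gene lists called higher (right, blue) or lower (left, red) in LNP than in bleomycin lung, in percent, with all 9 libraries (dark bars) and without LNP replicate 3 (pale bars); the number tested with 9 libraries stands in brackets. B cell markers were called in full in both fits, whereas alveolar type 2 markers and glycolysis genes were called only in the fit without LNP replicate 3.

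Sting1, the gene that the guide names, was called in neither fit. It stood at 53.8, 41.5 and 40.5 CPM in bleomycin libraries 1, 2 and 3 and at 51.8, 61.98 and 44.3 CPM in LNP libraries 1, 2 and 3, and the groups overlapped. The deposited table lists it as ENSMUSG00000024349 (minus strand of chromosome 18, bases 35866732 to 35873542); the sources name no build for these coordinates. The log2 fold change of LNP over bleomycin was 0.22 ± 0.17, adjusted p = 0.48, and 0.33 ± 0.17, adjusted p = 0.18 without LNP replicate 3. By an exact two-sided permutation test over the 6 libraries p was 0.3, and 3 against 3 samples cannot go below 0.1. Whole-lung RNA does not show how much of the gene was edited or in which cells. In bulk tissue, fewer cells of a type and less RNA per cell cannot be told apart, here and in all results below.

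None of the 19 tested genes of the STING pathway list was called with 9 libraries in edgeR. An unadjusted p under 0.05 was reached by 5, against 5221 of all 20794 genes, a like share. Without LNP replicate 3, 3 were higher and 3 lower, near the 14% and 10.7% of all genes. The median log2 fold change was 0.16, and 0.05 without it. The DNA sensor gene Cgas was at 2.62, 1.92 and 1.31 CPM in bleomycin and 3.29, 3.52 and 2.42 CPM in LNP libraries (log2 fold change 0.66 ± 0.33, adjusted p = 0.25, or 0.81 ± 0.33, adjusted p = 0.1). Tbk1, the kinase that STING engages, was at 39.8, 36.98 and 34.8 CPM in bleomycin and 30.7, 30.97 and 29.7 CPM in LNP libraries (log2 fold change -0.29 ± 0.13, adjusted p = 0.2, or -0.27 ± 0.14, adjusted p = 0.2). Neither gene was called in either fit. All LNP values of Tbk1 lay below all bleomycin values, as in 14.5% of all genes. Trex1, which degrades cytosolic DNA, was at 17.7, 13.9 and 8.77 CPM in bleomycin and 7.33, 12.7 and 7.94 CPM in LNP libraries. The remaining uncalled members were Ikbke, Ifi204, Ddx41, Trim32, Trim56, Tmem203, Mre11a, Aim2 and Stim1, with log2 fold changes between -0.40 for the DNA sensor Ifi204 and 0.89 for the inflammasome sensor Aim2.

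The 6 members called without LNP replicate 3 split by direction. Irf3, the transcription factor that TBK1 phosphorylates, stood at 38.8, 43.2 and 50.4 CPM in bleomycin and 63.8, 59.6 and 48.4 CPM in LNP libraries. Only LNP replicates 1 and 2 lay above the bleomycin range, with a log2 fold change of 0.49 ± 0.14, adjusted p = 0.032 in the fit without replicate 3. Rnf5, a ubiquitin ligase that marks STING for degradation, was at 15.9, 17.4 and 15.5 CPM in bleomycin and 35.2, 35.1 and 15.02 CPM in LNP libraries (log2 fold change 1.12 ± 0.15, adjusted p = 0.00065, without LNP replicate 3). Zbp1, a sensor of Z-form nucleic acid and itself interferon-induced, went from 12.6, 10.4 and 8.10 to 24.9, 20.7 and 11.97 CPM (log2 fold change 1.14 ± 0.22, adjusted p = 0.0047, without LNP replicate 3). Enpp1, which hydrolyses cyclic GMP-AMP, was lower in LNP replicates 1 and 2 at 8.54 and 10 CPM against 14.7, 15.6 and 13.5 CPM in bleomycin lung, while LNP replicate 3 held 16.4 CPM. Nlrc3, described as a brake on STING signalling, was at 9.27, 7.43 and 8.95 CPM in bleomycin and 3.75, 4.45 and 7.79 CPM in LNP libraries (log2 fold change -1.06 ± 0.30, adjusted p = 0.03, without LNP replicate 3). Irf7, which amplifies interferon transcription, was at 94.6, 90.6 and 90.1 CPM in bleomycin libraries. The LNP libraries held 74.02, 67.04 and 147 CPM, so that replicates 1 and 2 lay below and replicate 3 above all bleomycin libraries.

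**Figure D2:**
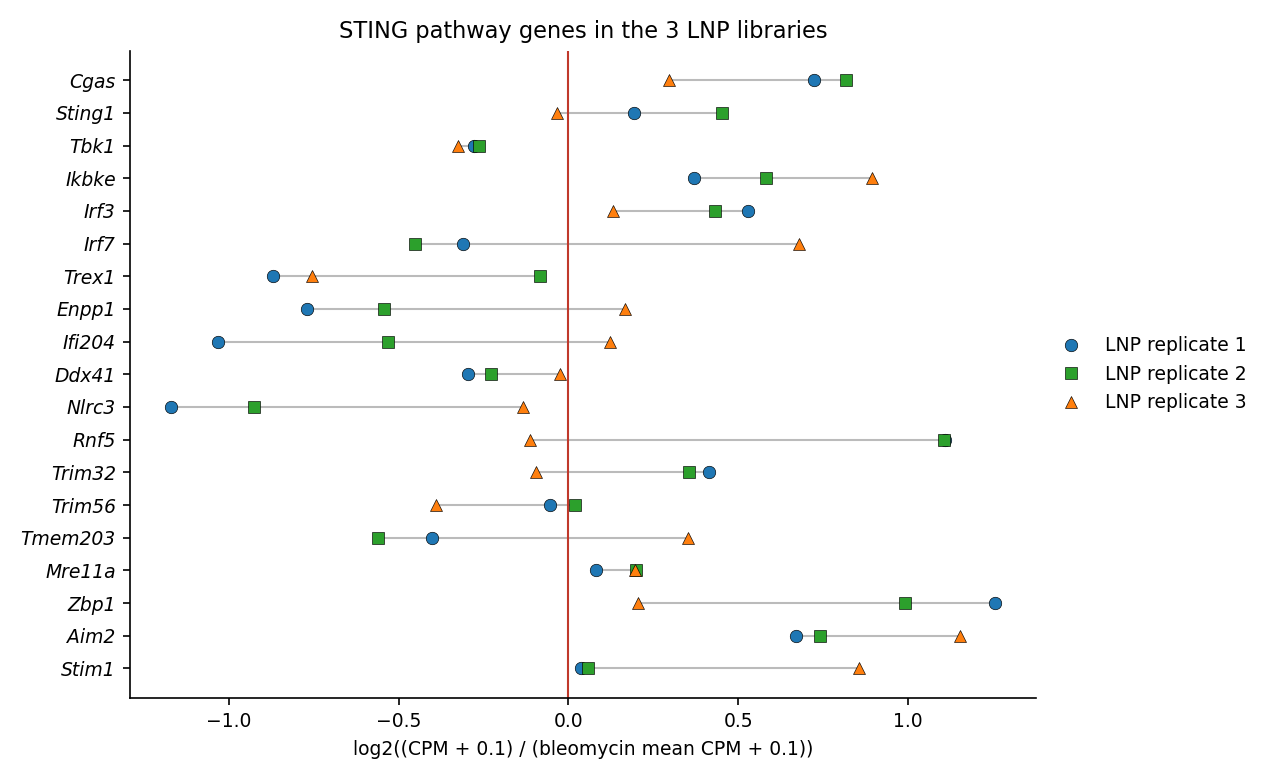
Log2 ratio of each LNP library to the mean of the 3 bleomycin libraries, after adding 0.1 CPM, for the 19 tested STING pathway genes; the vertical line marks the bleomycin mean and circles, squares and triangles mark LNP replicates 1, 2 and 3. Most genes sit within 1 unit of the line, and LNP replicate 3 lies on the other side of the line from replicates 1 and 2 for Irf7, Rnf5, Enpp1, Ifi204, Tmem203, Trim32 and, narrowly, Sting1.

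B cell markers were higher in LNP lung throughout. All 19 tested members were called in both fits, with a median log2 fold change of 3.63, and 3.76 without LNP replicate 3, against a background of 4.28% of all genes called higher. Ighd, the constant region of the IgD receptor of resting naive B cells, was at 2.08, 1.85 and 1.48 CPM in bleomycin and 40.6, 37.3 and 43.6 CPM in LNP libraries (log2 fold change 4.49 ± 0.18, adjusted p = 6.7e-06, or 4.44 ± 0.18, adjusted p = 2.3e-06). The control libraries held 47.6, 38.4 and 38.6 CPM. Ighd is listed as ENSMUSG00000104213 (minus strand of chromosome 12, bases 113370224 to 113379944). The 3 LNP libraries were alike and lay far from the bleomycin range. Pax5, which fixes B cell identity, was at 0.229, 0.341 and 0.257 CPM in bleomycin and 6.58, 9.18 and 9.70 CPM in LNP libraries. Blk, a B cell Src-family kinase, was at 0.328, 0.435 and 0.378 CPM in bleomycin and 8.91, 8.61 and 10.4 CPM in LNP libraries. Ms4a1, which encodes CD20, differed more among the LNP libraries, at 11.97, 11.5 and 5.68 CPM, but all lay above the 0.344, 0.497 and 0.393 CPM of bleomycin lung. The summed level of the list was 104 to 125 CPM in bleomycin, 732 to 879 CPM in LNP and 394 to 594 CPM in control libraries.

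Antibody genes were higher as well. Of 18 tested members of the plasma cell and antibody list, 11 were higher and none lower with 9 libraries, and 13 were higher without LNP replicate 3. Of all genes, 4.28% and 14% were higher. Igkc, the kappa light chain constant region, was at 106, 91.5 and 92.7 CPM in bleomycin and 456, 445 and 457 CPM in LNP libraries (log2 fold change 2.23 ± 0.13, adjusted p = 4.1e-05, or 2.22 ± 0.13, adjusted p = 1.1e-05), above the 125, 101 and 102 CPM of control lung. Switched heavy chains varied widely between LNP libraries. Ighg2c, an IgG2c heavy chain, was at 0.655, 1.37 and 1.16 CPM in bleomycin libraries and at 16.2, 27.6 and 144 CPM in LNP libraries, with the highest value in replicate 3 (log2 fold change 5.88 ± 0.86, adjusted p = 0.0089, or 4.36 ± 0.42, adjusted p = 0.00013, 8 of 9 fits). Ighg1 was at 0.999, 1.89 and 2.61 CPM in bleomycin and 35.4, 9.26 and 12.2 CPM in LNP libraries (log2 fold change 3.36 ± 0.56, adjusted p = 0.014, or 3.60 ± 0.55, adjusted p = 0.0014), and highest in LNP replicate 1. Igha, the mucosal IgA heavy chain, was at 152, 123 and 112 CPM in bleomycin and 229.8, 346 and 114 CPM in LNP libraries and was called only without LNP replicate 3. Mzb1, a chaperone of antibody-secreting and marginal zone B cells, was at 1.29, 1.27 and 1.01 CPM in bleomycin and 7.12, 7.04 and 10.1 CPM in LNP libraries. Pou2af1, a B cell transcriptional co-activator, was at 1.02, 1.65 and 1.59 CPM in bleomycin and 16.4, 14.6 and 21.97 CPM in LNP libraries. Both had all LNP libraries above all bleomycin libraries. Sdc1, Xbp1 and Txndc5, which plasma cells share with epithelium and other secretory cells, were not called in either fit. Antibody constant region genes lie in arrays of similar copies, and the sources do not say how the authors' counting shared reads between them.

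Genes that organise lymphoid tissue gave 5 higher and none lower of 13 with 9 libraries, where 4.28% of all genes were higher. The fit without LNP replicate 3 had 6 higher and 2 lower, against 14% and 10.7%. Cxcr5, the receptor that brings B cells to follicles, was at 0.885, 0.962 and 0.317 CPM in bleomycin and 8.97, 10.02 and 5.70 CPM in the LNP group (log2 fold change 3.51 ± 0.41, adjusted p = 0.0026, or 3.72 ± 0.37, adjusted p = 0.00015). Ltb, the lymphotoxin beta chain, was at 4.83, 4.41 and 6.51 CPM in bleomycin and 41.1, 41.1 and 23.3 CPM in LNP libraries (log2 fold change 2.74 ± 0.25, adjusted p = 0.00076, or 2.97 ± 0.18, adjusted p = 1.8e-05). Ccl21a, a chemokine of lymphatic vessels and T cell zones, was at 102, 109 and 125 CPM in bleomycin and 209, 225 and 242 CPM in LNP libraries (log2 fold change 1.01 ± 0.14, adjusted p = 0.0082, or 0.96 ± 0.14, adjusted p = 0.0014, called in 8 of 9 fits). Its closely related copies make its counts uncertain. Cxcl13, the ligand of CXCR5, did not follow its receptor. It was at 33.9, 29.2 and 21.9 CPM in bleomycin libraries, 9.98 and 9.41 CPM in LNP replicates 1 and 2 and 117 CPM in LNP replicate 3, and without that library it was lower than in bleomycin (log2 fold change -1.54 ± 0.20, adjusted p = 0.00063).

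T cell markers were higher in LNP lung for 18 of 22 members with 9 libraries and for 21 without LNP replicate 3, and none was lower. Of all genes, 4.28% and 14% were higher. The count ran from 7, without bleomycin replicate 2, to 21 over the fits that left out 1 library, and was 10 when only the 6 libraries compared were fitted. Trbc2, a constant region of the T cell receptor beta chain, was at 4.28, 3.82 and 3.76 CPM in bleomycin and 18.4, 17.7 and 15.1 CPM in LNP libraries (log2 fold change 2.11 ± 0.16, adjusted p = 0.00022, or 2.20 ± 0.15, adjusted p = 3.2e-05), with 17.3, 15.2 and 14.9 CPM in control libraries. Lck, the kinase that starts T cell receptor signalling, was at 3.72, 4.58 and 4.40 CPM in bleomycin and 18.4, 22.5 and 15.8 CPM in LNP libraries (log2 fold change 2.16 ± 0.18, adjusted p = 0.00045, or 2.28 ± 0.17, adjusted p = 4.6e-05). Cd3e, a chain of the receptor complex, was at 2.02, 2.11 and 1.77 CPM in bleomycin and 9.56, 11.8 and 7.75 CPM in LNP libraries. Lat, the adaptor below it, was at 4.13, 4.35 and 4.81 CPM in bleomycin and 13.4, 12.8 and 13.8 CPM in LNP libraries. All 3 LNP libraries lay above all bleomycin libraries in these genes, with replicate 3 lowest in Trbc2, Lck and Cd3e and highest in Lat. Cd4 was highest in LNP replicate 3, at 10.2, 12.5 and 16.3 CPM against 4.47, 3.20 and 3.16 CPM in bleomycin (log2 fold change 1.85 ± 0.26, adjusted p = 0.0078, or 1.66 ± 0.24, adjusted p = 0.0012). Cd8b1, a chain of the CD8 co-receptor, was at 0.819, 1.55 and 1.78 CPM in bleomycin and 4.90, 6.58 and 6.03 CPM in LNP libraries (log2 fold change 2.07 ± 0.30, adjusted p = 0.0086, or 2.05 ± 0.31, adjusted p = 0.0014, 8 of 9 fits), and the control libraries held 8.43, 10.4 and 8.25 CPM.

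Among 12 regulatory T cell and checkpoint genes only Tnfrsf18, which encodes GITR, was higher with 9 libraries, at 2.49, 2.64 and 2.06 CPM in bleomycin and 6.16, 6.17 and 4.39 CPM in the LNP group (log2 fold change 1.22 ± 0.24, adjusted p = 0.02, or 1.37 ± 0.21, adjusted p = 0.0017, 4 of 9 fits). Without LNP replicate 3, 3 of the 12 were higher, against 14% of all genes (4.28% with 9 libraries). Foxp3, the lineage factor of regulatory T cells, was at 4.73, 1.91 and 0.559 CPM in bleomycin and 4.15, 6.55 and 8.24 CPM in LNP libraries, and was called in neither fit. Natural killer and cytotoxic genes depended on the library. With 9 libraries 5 of 16 were higher, against 4.28% of all genes, and without LNP replicate 3 there were 12, against 14%. Nkg7, a granule membrane protein, was at 1.61, 1.21 and 1.45 CPM in bleomycin and 11.2, 8.41 and 4.13 CPM in the LNP group (log2 fold change 2.48 ± 0.33, adjusted p = 0.006, or 2.79 ± 0.20, adjusted p = 3.5e-05, 8 of 9 fits). Gzma, the granzyme A gene, was at 10.5 and 9.85 CPM in LNP replicates 1 and 2 but at 0.592 CPM in replicate 3, below the 1.03, 1.15 and 0.892 CPM of the bleomycin libraries (log2 fold change 3.31 ± 0.18, adjusted p = 7.7e-06, without LNP replicate 3). Prf1, the pore-forming perforin, was at 0.721, 0.698 and 0.831 CPM in bleomycin and 3.72, 4.65 and 1.31 CPM in LNP libraries (5 of 9 fits), and both LNP replicates 1 and 2 stayed below the 13.5, 13.6 and 11.5 CPM of control lung. Ncr1, a receptor restricted to natural killer and related innate cells, had no count in LNP replicate 3 and 1.58 and 1.16 CPM in the other LNP libraries.

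**Figure D3:**
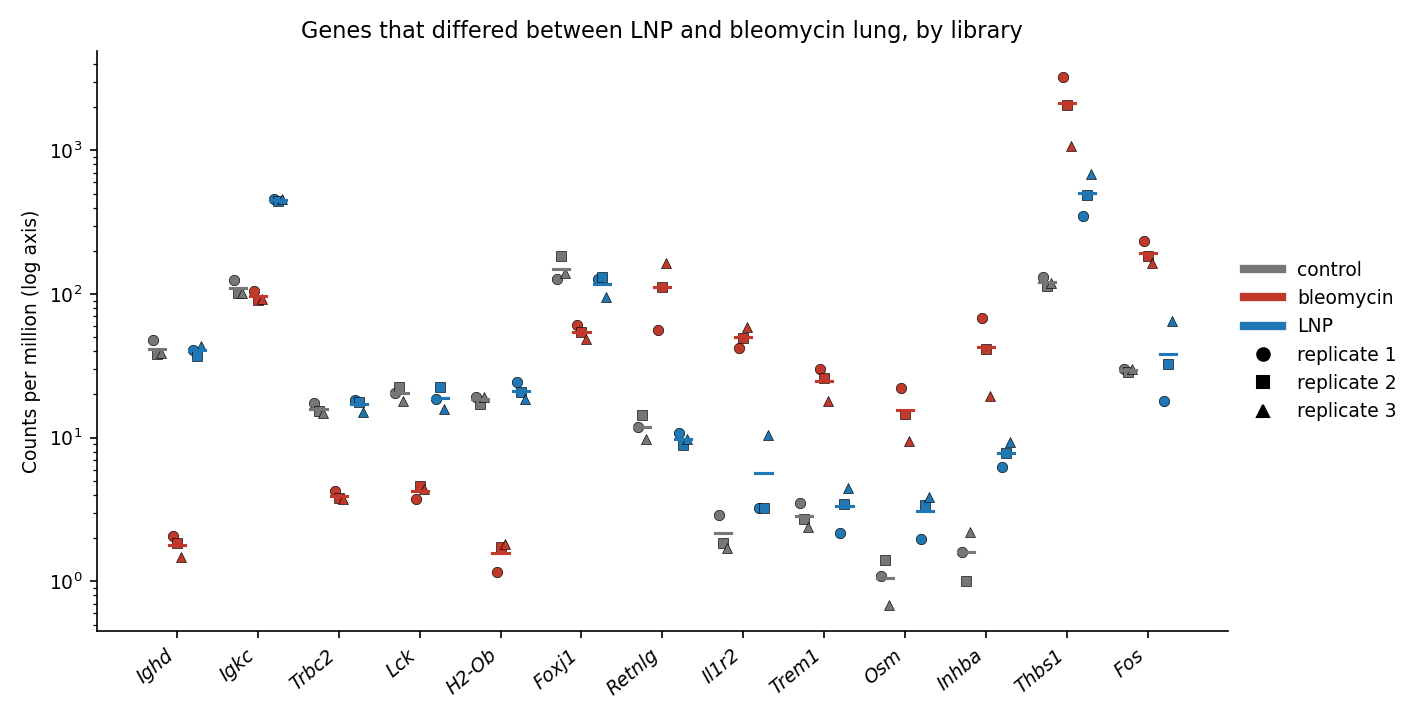
Level in CPM on a log axis for 13 genes in each control (grey), bleomycin (red) and LNP (blue) library, with circles, squares and triangles for replicates 1, 2 and 3 and a bar at each group mean. The 3 LNP libraries lie above the bleomycin libraries for the B cell, T cell, H2-Ob and Foxj1 columns and below them for the neutrophil, cytokine, matrix and immediate early genes. LNP replicate 3 is the LNP library nearest to bleomycin in all genes shown except Ighd, Igkc and Retnlg.

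Antigen presentation genes of MHC class II, carried by dendritic cells, B cells and macrophages, were higher for 9 of 10 members with 9 libraries and for all 10 without LNP replicate 3. The shares of all genes called higher were 4.28% and 14%. H2-Ob, part of the H2-O complex typical of B cells, was at 1.16, 1.74 and 1.83 CPM in bleomycin and 24.6, 20.7 and 18.5 CPM in LNP libraries (log2 fold change 3.75 ± 0.22, adjusted p = 4.1e-05, or 3.84 ± 0.21, adjusted p = 8.8e-06). Its partner H2-Oa was at 1.93, 2.05 and 1.93 CPM in bleomycin and 11.4, 10.9 and 11.4 CPM in LNP libraries. In both, LNP replicate 3 stood with the other LNP libraries. The broadly expressed class II chains did so less closely. H2-Aa was at 255, 205 and 165 CPM in bleomycin and 877, 876 and 379 CPM in LNP libraries (log2 fold change 1.77 ± 0.30, adjusted p = 0.014, or 2.08 ± 0.17, adjusted p = 5.3e-05, 8 of 9 fits). Cd74, the invariant chain, was at 1152, 942 and 829 CPM in bleomycin and 3775, 3774 and 1522 CPM in LNP libraries (log2 fold change 1.63 ± 0.31, adjusted p = 0.02, or 1.96 ± 0.15, adjusted p = 4.7e-05, 4 of 9 fits). H2-Ab1 was at 223, 188 and 157 CPM in bleomycin and 944, 913 and 293 CPM in LNP libraries (4 of 9 fits). These belong to the 6 largest rises in CPM among genes called in both fits. Ciita, the master regulator of class II transcription, was at 3.88, 2.93 and 8.21 CPM in bleomycin and 35.3, 39.3 and 12.5 CPM in LNP libraries (log2 fold change 2.53 ± 0.47, adjusted p = 0.018, or 2.90 ± 0.35, adjusted p = 0.00043). In every one of these 4 genes replicate 3 lay above the bleomycin range and well under replicates 1 and 2.

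MHC class I and immunoproteasome genes were higher for 12 of 16 members with 9 libraries and 14 without LNP replicate 3, against 4.28% and 14% of all genes. Differences were smaller, with a median log2 fold change of 0.69, and 0.85 without LNP replicate 3. Tap1, which pumps peptides into the endoplasmic reticulum, was at 71.1, 56.4 and 52.5 CPM in bleomycin and 130.5, 120.3 and 100.1 CPM in the LNP group (log2 fold change 0.96 ± 0.15, adjusted p = 0.011, or 1.07 ± 0.14, adjusted p = 0.00064, 8 of 9 fits). B2m, the light chain of class I, was at 1106, 1050.4 and 1039.6 CPM in bleomycin and 1643, 1656 and 1450.1 CPM in LNP libraries (log2 fold change 0.57 ± 0.12, adjusted p = 0.027, or 0.63 ± 0.11, adjusted p = 0.0024, 3 of 9 fits). The heavy chain gene H2-K1 was at 1614, 1433 and 1247 CPM in bleomycin and 2329.9, 2073 and 1964 CPM in LNP libraries (2 of 9 fits). Psmb9, an interferon-induced catalytic subunit of the immunoproteasome, was at 15.99, 15.5 and 16.8 CPM in bleomycin and 64.1, 52.1 and 22.7 CPM in LNP libraries (log2 fold change 1.52 ± 0.31, adjusted p = 0.024, or 1.85 ± 0.14, adjusted p = 4.8e-05, 4 of 9 fits). Groups did not overlap in these 4 genes. The class I genes of the H2-Q and H2-T regions are near-identical copies, so their counts are uncertain.

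Dendritic cell genes were called higher in 4 of 15 cases with 9 libraries, against 4.28% of all genes. Without LNP replicate 3, 7 were higher and 1 lower, against 14% and 10.7%. Cd209a, a lectin of monocyte-derived and CD11b-type dendritic cells, was at 0.115, 0.155 and 0.151 CPM in bleomycin libraries, 8.94 and 9.69 CPM in LNP replicates 1 and 2 and 0.209 CPM in LNP replicate 3 (log2 fold change 6.03 ± 0.32, adjusted p = 6.8e-06, without that library; 4 of 9 fits). Xcr1, the chemokine receptor of cross-presenting dendritic cells, was at 0.147, 0.419 and 0.196 CPM in bleomycin and 5.08, 4.58 and 0.331 CPM in LNP libraries (1 of 9 fits). In both genes replicate 3 stood close to the bleomycin libraries. Flt3, the growth factor receptor of the lineage, was at 3.11, 2.36 and 2.68 CPM in bleomycin and 12.2, 11.5 and 4.88 CPM in LNP libraries (log2 fold change 1.81 ± 0.33, adjusted p = 0.016, or 2.13 ± 0.19, adjusted p = 8e-05, 5 of 9 fits). Dnase1l3, a secreted nuclease made by dendritic cells and macrophages, did not show that split, with 0.131, 0.155 and 0.242 CPM in bleomycin and 5.22, 4.19 and 5.92 CPM in the LNP group (log2 fold change 4.84 ± 0.41, adjusted p = 0.00045, or 4.72 ± 0.41, adjusted p = 8e-05).

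Neutrophil genes were lower in LNP lung for 11 of 19 members with 9 libraries, against a background of 1.87% of all genes called lower, and none was higher. Leaving out LNP replicate 3 gave 13 lower and 3 higher, against 10.7% and 14% of all genes. The median log2 fold change was -2.18, and -1.83 without LNP replicate 3. The lower count was 6 without bleomycin replicate 2 or without LNP replicate 1, and 7 in a fit of the 6 libraries alone. Retnlg, a resistin-like protein of granulocytes, was at 56.03, 113 and 165 CPM in bleomycin and 10.8, 8.92 and 9.83 CPM in LNP libraries (log2 fold change -3.50 ± 0.35, adjusted p = 0.0013, or -3.49 ± 0.42, adjusted p = 0.00041), close to the 11.8, 14.3 and 9.75 CPM of control lung. It is listed as ENSMUSG00000022651 (plus strand of chromosome 16, bases 48692984 to 48694859). Il1r2, the interleukin-1 decoy receptor, was at 42.1, 49.1 and 58.7 CPM in bleomycin and 3.26, 3.24 and 10.5 CPM in LNP libraries (log2 fold change -3.15 ± 0.46, adjusted p = 0.0089, or -3.94 ± 0.27, adjusted p = 3.2e-05). Trem1, an activating receptor of neutrophils and monocytes, was at 30.3, 26.1 and 18.1 CPM in bleomycin and 2.17, 3.47 and 4.48 CPM in LNP libraries (log2 fold change -2.88 ± 0.31, adjusted p = 0.0017, or -3.14 ± 0.31, adjusted p = 0.00015). S100a9, which pairs with S100A8 to form calprotectin, was at 106, 173 and 219 CPM in bleomycin and 27.4, 21.3 and 12.3 CPM in LNP lung, and LNP replicate 3 had the lowest value of all 9 libraries. No LNP library overlapped the bleomycin range in these genes, which the naming rule required of the largest falls.

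Several members stood apart from that pattern. Lcn2, made by neutrophils and by injured epithelium, was at 461, 379 and 349 CPM in bleomycin and 556, 566 and 355 CPM in LNP libraries and was higher only without LNP replicate 3 (log2 fold change 0.51 ± 0.13, adjusted p = 0.02). Camp, a granule protein of immature neutrophils, was at 0.852, 0.652 and 0.121 CPM in bleomycin, 4.65, 2.67 and 0.645 CPM in LNP and 6.38, 16.2 and 7.48 CPM in control libraries. Hdc, the histamine-forming enzyme, was at 69.5, 55 and 43.7 CPM in bleomycin and 148, 142 and 50.3 CPM in LNP libraries. Mmp9 was at 18.9, 44.2 and 70.1 CPM in bleomycin and 14.4, 20.4 and 7.42 CPM in LNP libraries and was called in neither fit, with bleomycin replicate 1 inside the LNP range. Stfa2l1 and Cstdc4, stefin-family protease inhibitors of granulocytes, had the largest falls among the 12 that the naming rule selected. Cstdc4 was at 3.56, 5.93 and 6.57 CPM in bleomycin and 0.194, 0.327 and 0.244 CPM in the LNP group (log2 fold change -4.38 ± 0.73, adjusted p = 0.014, or -4.36 ± 0.75, adjusted p = 0.0027, 7 of 9 fits), and its family of near-identical copies makes the counts uncertain. Ifitm6, an interferon-induced transmembrane protein of myeloid cells, was at 6.34, 11.3 and 18.9 CPM in bleomycin and 1.69, 2.18 and 2.84 CPM in LNP libraries (6 of 9 fits).

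Of 26 inflammatory genes downstream of NF-kB, 3 were lower with 9 libraries, against 1.87% of all genes. Without LNP replicate 3, 9 were lower and 1 higher, against 10.7% and 14%. Osm, an interleukin-6 family cytokine, was at 22.3, 14.6 and 9.55 CPM in bleomycin and 1.99, 3.40 and 3.85 CPM in LNP libraries (log2 fold change -2.33 ± 0.39, adjusted p = 0.014, or -2.52 ± 0.43, adjusted p = 0.0026, 6 of 9 fits). Il1b, the interleukin-1 beta gene, was at 40.3, 37.7 and 45.96 CPM in bleomycin and 7.65, 15.6 and 3.83 CPM in LNP libraries (log2 fold change -2.20 ± 0.41, adjusted p = 0.018, or -1.83 ± 0.28, adjusted p = 0.0014, 6 of 9 fits), lowest in LNP replicate 3. Sele, the endothelial selectin that catches neutrophils, was at 5.24, 2.84 and 1.04 CPM in bleomycin and 0.583, 0.655 and 0.192 CPM in LNP libraries (2 of 9 fits). Il6 was at 14.8, 5.94 and 1.22 CPM in bleomycin and 0.486, 1.03 and 1.03 CPM in LNP libraries. All 3 LNP values lay below all bleomycin values, but the bleomycin libraries differed widely among themselves and the gene was called only without LNP replicate 3 (log2 fold change -3.26 ± 0.96, adjusted p = 0.034). Tnf was at or below 1.39 CPM in all 6 libraries and was called in neither fit.

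Of 25 markers of monocyte-derived and scar-associated macrophages, 4 were lower with 9 libraries and 13 without LNP replicate 3, where 1.87% and 10.7% of all genes were lower. The higher ones numbered 2 and 4, against 4.28% and 14% of all genes. Spp1, which encodes osteopontin and is high in macrophages of scars, was at 5292, 4657 and 4537 CPM in bleomycin and 1192, 2113 and 2529 CPM in LNP libraries (log2 fold change -1.31 ± 0.30, adjusted p = 0.034, or -1.54 ± 0.30, adjusted p = 0.0049, 3 of 9 fits). Chil3, a chitinase-like protein of alternatively activated macrophages, was at 798, 939.7 and 1052 CPM in bleomycin and 224, 160.4 and 406 CPM in LNP libraries (log2 fold change -1.82 ± 0.30, adjusted p = 0.013, or -2.27 ± 0.19, adjusted p = 6.7e-05, 7 of 9 fits). Mrc1, the mannose receptor, was at 198, 177 and 165 CPM in bleomycin and 60.1, 69.9 and 107 CPM in LNP libraries (log2 fold change -1.19 ± 0.21, adjusted p = 0.017, or -1.47 ± 0.16, adjusted p = 0.00027, 5 of 9 fits). Their LNP values did not overlap bleomycin. Trem2 and Gpnmb, which mark lipid-handling macrophages, were not called in either fit. Trem2 was at 102, 102 and 108 CPM in bleomycin and 63.3, 87.1 and 144 CPM in LNP libraries and Gpnmb at 226, 257 and 300.02 CPM in bleomycin and 233, 403 and 505 CPM in LNP libraries. Both were highest in LNP replicate 3. Fabp5, a fatty acid carrier, was higher at 112, 132 and 144 CPM in LNP against 58.1, 47.2 and 38.5 CPM in bleomycin lung (log2 fold change 1.43 ± 0.25, adjusted p = 0.016, or 1.35 ± 0.26, adjusted p = 0.005, 8 of 9 fits). Cx3cr1, the fractalkine receptor of patrolling monocytes and interstitial macrophages, was at 2.82, 4.72 and 7.07 CPM in bleomycin and 25.1, 33.6 and 11.4 CPM in LNP libraries (log2 fold change 2.26 ± 0.42, adjusted p = 0.018, or 2.59 ± 0.32, adjusted p = 0.00052, 5 of 9 fits).

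LNP replicate 3 differed from replicates 1 and 2 in several macrophage genes. Apoe, the lipid carrier, was at 1763 and 2431 CPM in LNP replicates 1 and 2, 6052 CPM in replicate 3 and 2538, 3204 and 3516 CPM in bleomycin libraries. C1qb, a chain of complement C1q, was at 550.4, 523 and 525 CPM in bleomycin and 301, 376 and 701 CPM in LNP libraries and lower without replicate 3 (log2 fold change -0.65 ± 0.15, adjusted p = 0.012). Arg1, the arginase of alternatively activated macrophages, was at 7.73 and 14.1 CPM in LNP replicates 1 and 2 but at 126 CPM in replicate 3, within the 219, 153 and 97.1 CPM of bleomycin lung (log2 fold change -3.84 ± 0.38, adjusted p = 0.00015, without LNP replicate 3). Mmp12, the macrophage elastase, went the other way. It was at 78.5 and 110.4 CPM in LNP replicates 1 and 2, against 9.86, 12.9 and 15.4 CPM in bleomycin and 3.36, 2.75 and 4.06 CPM in control libraries (log2 fold change 2.89 ± 0.23, adjusted p = 5.4e-05, without LNP replicate 3). Replicate 3 held 7.09 CPM. Itgax, which encodes CD11c, was at 31.1, 34.3 and 33.3 CPM in bleomycin and 96.2, 137 and 27.7 CPM in LNP libraries, with the same split. Of 16 resident alveolar macrophage genes, 1 was higher and 2 lower with 9 libraries, against 4.28% and 1.87% of all genes. Leaving out LNP replicate 3 gave 7 higher and 4 lower, against 14% and 10.7%. The scavenger receptor gene Marco was at 61.3, 46.6 and 32.9 CPM in bleomycin and 13.7, 3.45 and 27.9 CPM in LNP libraries. Pparg, the factor that sets the resident identity, was at 8.22, 8.91 and 9.93 CPM in bleomycin and 9.55, 10.8 and 11.7 CPM in LNP libraries with no call in either fit.

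Type I interferon-stimulated genes were higher for 6 of 35 members with 9 libraries, against 4.28% of all genes, and none was lower. The fit without LNP replicate 3 had 22 higher and 1, Irf7, lower, against 14% and 10.7% of all genes. The median log2 fold change was 0.62, and 0.82 without it. The higher count was 0 without bleomycin replicate 2, 1 without control replicate 3, bleomycin replicate 1, LNP replicate 1 or LNP replicate 2, and 2 without control replicate 1 or bleomycin replicate 3. Such genes often carry an interferon-stimulated response element near their start, which a complex with STAT2 and IRF9 binds. The core, written GAAA, then any 2 bases, then GAAA, and searched on both strands with overlapping matches kept, occurred in the promoters of 15 of 26 list genes found by symbol among 36 in the RefSeq promoter table (57.7%). Among all 27025 genes there, 1079 held it (3.99%). The window ran from 250 bases before to 50 after the start. The promoters of the 4 members called in either fit that hold the core and have the smallest p with 9 libraries are printed to show how it lies in them, as the 250 bases before the start on the gene's own strand, 5′ to 3′ and build GRCm38.p6, with the core in capitals.
Stat2, chr10:128270248-128270497, plus strand: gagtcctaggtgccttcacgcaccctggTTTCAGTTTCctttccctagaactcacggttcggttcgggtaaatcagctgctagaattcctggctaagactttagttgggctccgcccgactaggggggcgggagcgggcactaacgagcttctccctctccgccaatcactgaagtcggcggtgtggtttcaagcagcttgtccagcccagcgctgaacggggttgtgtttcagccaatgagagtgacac
Oas1a, chr5:120907526-120907775, minus strand: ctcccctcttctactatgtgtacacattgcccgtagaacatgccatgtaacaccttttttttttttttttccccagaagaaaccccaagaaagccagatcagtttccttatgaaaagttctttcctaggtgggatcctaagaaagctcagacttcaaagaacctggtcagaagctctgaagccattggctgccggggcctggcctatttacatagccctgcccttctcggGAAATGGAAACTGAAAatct
Oas1g, chr5:120887614-120887863, minus strand: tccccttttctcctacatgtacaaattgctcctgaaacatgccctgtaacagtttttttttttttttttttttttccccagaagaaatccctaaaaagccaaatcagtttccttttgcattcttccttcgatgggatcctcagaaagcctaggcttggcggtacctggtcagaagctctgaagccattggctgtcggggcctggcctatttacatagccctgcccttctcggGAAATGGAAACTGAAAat
Bst2, chr8:71537473-71537722, minus strand: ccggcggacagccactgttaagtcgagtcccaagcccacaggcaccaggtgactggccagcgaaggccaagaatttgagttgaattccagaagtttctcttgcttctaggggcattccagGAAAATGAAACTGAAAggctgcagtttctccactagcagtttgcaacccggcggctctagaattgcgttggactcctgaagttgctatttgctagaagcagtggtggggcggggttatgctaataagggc

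The cores of Oas1a, Oas1g and Bst2 are each a pair of overlapping matches on the gene's strand, the nearer one starting 14, 12 and 124 bases before the start. That of Stat2 lies on the opposite strand, 222 bases before it. A match is a description of these letters and not a measured binding site. Stat2, a subunit of the complex itself, was at 24.8, 23.3 and 26.6 CPM in bleomycin and 42.96, 44.6 and 38.8 CPM in LNP libraries (log2 fold change 0.76 ± 0.12, adjusted p = 0.01, or 0.82 ± 0.12, adjusted p = 0.001, 8 of 9 fits). All 3 LNP libraries lay above the bleomycin range. Oas1a, an oligoadenylate synthetase that senses double-stranded RNA, was at 18.4, 17.4 and 15.2 CPM in bleomycin and 43.1, 46.5 and 23.4 CPM in LNP libraries (log2 fold change 1.15 ± 0.25, adjusted p = 0.028, or 1.40 ± 0.16, adjusted p = 0.00033, 3 of 9 fits), again without overlap and with replicate 3 nearest to bleomycin. Oas1g, its close relative, was at 5.70, 5.14 and 5.70 CPM in bleomycin and 12.3, 14.6 and 6.83 CPM in LNP libraries and was called only without LNP replicate 3 (log2 fold change 1.29 ± 0.19, adjusted p = 0.0014); reads of these similar copies may be shared. Bst2, the tether that holds budding viruses, was at 99.4, 92.7 and 94.1 CPM in bleomycin and 198, 166 and 98 CPM in LNP libraries (log2 fold change 0.94 ± 0.13, adjusted p = 0.00099, without LNP replicate 3).

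The other members called with 9 libraries were Xaf1 (2 of 9 fits), Dhx58 (3 of 9 fits), Irf9 and Cmpk2. Irf9, the DNA-binding subunit of the complex, was at 36.9, 38.1 and 39.3 CPM in bleomycin and 73.4, 76.9 and 43.4 CPM in the LNP group (log2 fold change 0.76 ± 0.19, adjusted p = 0.048, or 0.98 ± 0.11, adjusted p = 0.00025). Oasl2 was at 42.5, 41.03 and 42.3 CPM in bleomycin and 105, 94.4 and 41.3 CPM in LNP libraries. Its LNP replicates 1 and 2 lay above the bleomycin libraries and replicate 3 within their range. Others showed no call in either fit, among them Oas3 (13.5, 12.6 and 12.3 CPM in bleomycin and 14.7, 12.8 and 15.1 CPM in LNP libraries), Ifit3 (105, 106 and 97.5 CPM in bleomycin and 119, 103 and 107 CPM in LNP libraries) and Cxcl10 (10.9, 9.00 and 5.92 CPM in bleomycin and 13.03, 12.7 and 10.99 CPM in LNP libraries), a chemokine for activated T cells. Guanylate-binding proteins and related GTPases induced by interferon gamma were higher for 1 of 19 members with 9 libraries, Gbp8 (1.52, 1.12 and 1.39 CPM in bleomycin and 4.91, 4.53 and 3.12 CPM in LNP libraries, log2 fold change 1.64 ± 0.31, adjusted p = 0.019, or 1.82 ± 0.29, adjusted p = 0.002, 5 of 9 fits), and for 11 without LNP replicate 3. The shares of all genes called higher in the 2 fits were 4.28% and 14%. Irf1, a central interferon gamma target, was at 64.6, 56.5 and 53.7 CPM in bleomycin, 120.2 and 112 CPM in LNP replicates 1 and 2 and 59.6 CPM in replicate 3. Ifng itself stayed at or below 0.208 CPM in all 6 libraries.

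**Figure D4:**
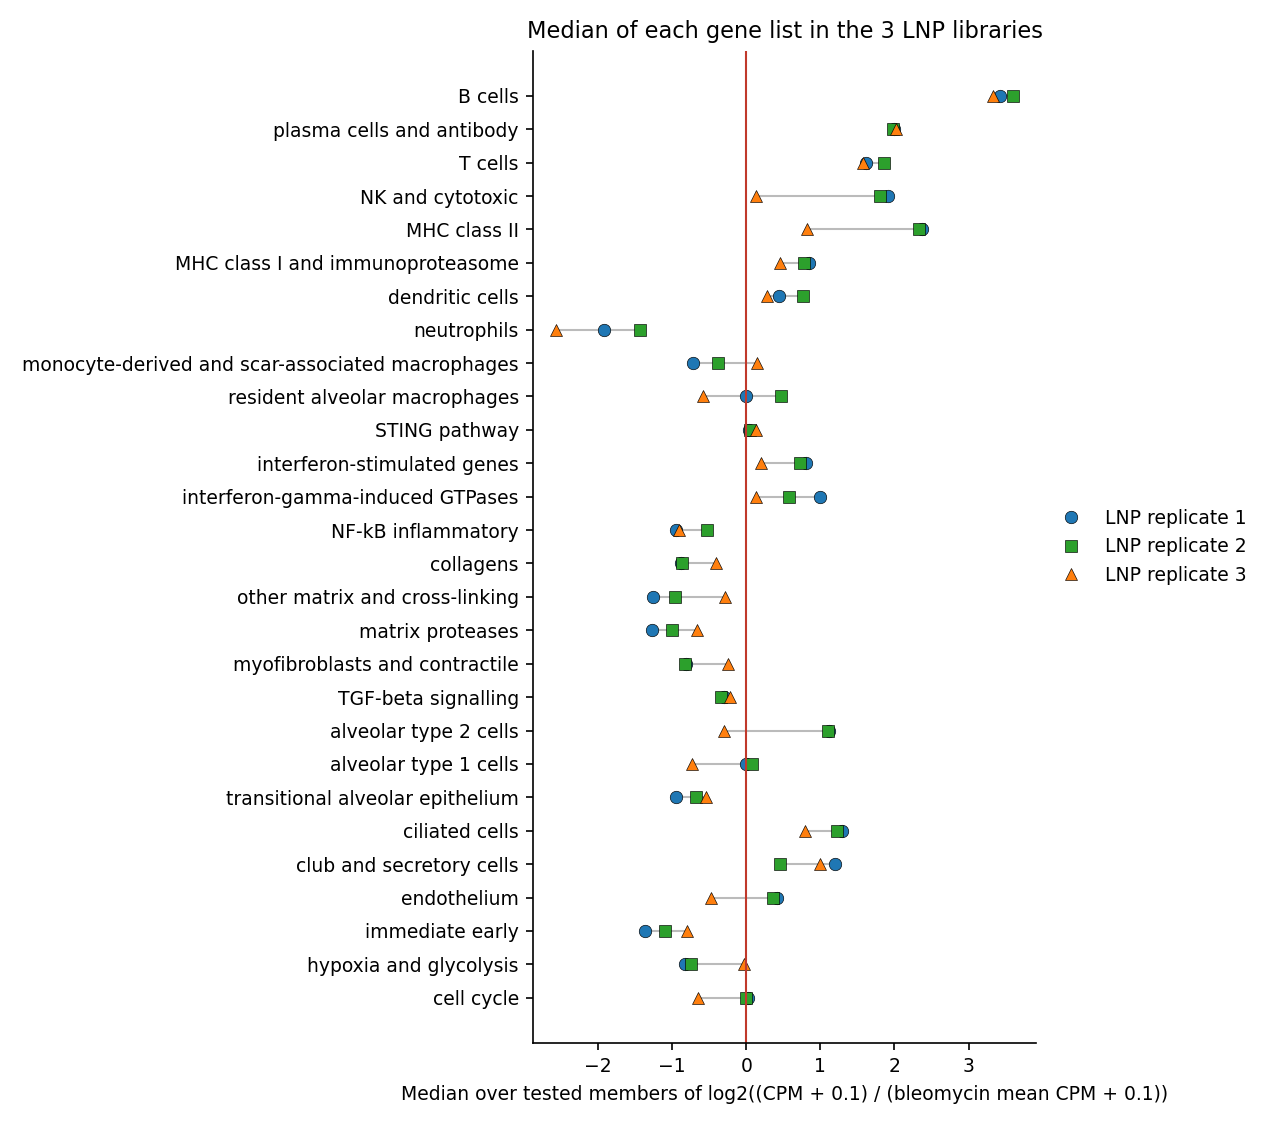
Median over the tested members of each gene list of the log2 ratio of 1 LNP library to the mean of the 3 bleomycin libraries, after adding 0.1 CPM; the vertical line marks the bleomycin mean and circles, squares and triangles mark LNP replicates 1, 2 and 3. The replicates lie close together for B cells, plasma cells and T cells, while replicate 3 lies near or across the line for natural killer, alveolar type 2, endothelial, glycolysis and several matrix lists.

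Collagen genes were lower in LNP lung for 6 of 20 members with 9 libraries, and 1 was higher, against 1.87% and 4.28% of all genes. Leaving out LNP replicate 3 gave 15 lower and 1 higher, against 10.7% and 14% of all genes. The median log2 fold change was -0.67, and -0.87 without it. The lower count was 0 without bleomycin replicate 1, bleomycin replicate 2, LNP replicate 1 or LNP replicate 2, 2 without bleomycin replicate 3 or control replicate 3, and 3 without control replicate 1. Col6a3, a chain of the beaded-filament collagen VI, was at 868, 884 and 849 CPM in bleomycin and 247, 276 and 519 CPM in LNP libraries (log2 fold change -1.32 ± 0.26, adjusted p = 0.022, or -1.72 ± 0.15, adjusted p = 8e-05, 5 of 9 fits). Col12a1, a collagen that decorates fibrils, was at 189, 157 and 151 CPM in bleomycin and 58.6, 70.1 and 102 CPM in LNP libraries (log2 fold change -1.11 ± 0.22, adjusted p = 0.022, or -1.36 ± 0.18, adjusted p = 0.00065, 5 of 9 fits). Col3a1, a main fibrillar collagen of young scar, was at 2768, 2523 and 2341 CPM in bleomycin and 1611, 1808 and 1680.3 CPM in LNP libraries (log2 fold change -0.58 ± 0.13, adjusted p = 0.035, or -0.57 ± 0.13, adjusted p = 0.011, 2 of 9 fits), and there replicate 3 lay between the other LNP libraries. Col1a1, the chief collagen of scar, was at 2609.7, 2802 and 3004 CPM in bleomycin and 1318, 1449 and 2205 CPM in LNP libraries (adjusted p = 0.058 with and 0.0011 without LNP replicate 3). All LNP libraries of these 4 genes lay below all bleomycin libraries and above the control libraries. Col14a1, which is made by adventitial fibroblasts, went up, from 22.3, 23.3 and 25.2 to 60.4, 55.7 and 30.3 CPM (log2 fold change 1.05 ± 0.25, adjusted p = 0.042, or 1.30 ± 0.17, adjusted p = 0.0007).

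Other matrix genes were lower as well. With 9 libraries 8 of 27 were lower and none higher, against 1.87% and 4.28% of all genes. Without LNP replicate 3, 19 were lower and 1 higher, against 10.7% and 14%. Fn1, the fibronectin gene, was at 4769, 4544 and 4527 CPM in bleomycin and 1442, 2051 and 3126 CPM in the LNP group (log2 fold change -1.06 ± 0.26, adjusted p = 0.042, or -1.40 ± 0.19, adjusted p = 0.00079, 1 of 9 fits). Thbs1, thrombospondin 1, which activates latent TGF-beta, was at 3238, 2063 and 1078 CPM in bleomycin and 347, 491 and 682 CPM in LNP libraries (log2 fold change -2.07 ± 0.37, adjusted p = 0.016, or -2.34 ± 0.38, adjusted p = 0.0022, 5 of 9 fits), and its bleomycin libraries spread widely. Tnc, a tenascin of healing wounds, was at 1142, 792 and 518 CPM in bleomycin and 148, 260 and 343 CPM in LNP libraries (log2 fold change -1.71 ± 0.33, adjusted p = 0.021, or -1.997 ± 0.33, adjusted p = 0.0022, 5 of 9 fits). Sparc, a collagen-binding protein, was at 6272, 6375 and 6270.5 CPM in bleomycin and 3849.9, 4167 and 4667 CPM in LNP libraries (log2 fold change -0.58 ± 0.14, adjusted p = 0.046, or -0.65 ± 0.13, adjusted p = 0.0065, 2 of 9 fits). These 4 had no overlap between groups. Lox, the enzyme that cross-links collagen and elastin, was at 95.7 and 117 CPM in LNP replicates 1 and 2 and 436 CPM in replicate 3, all under the 831, 731 and 675 CPM of bleomycin libraries. It was not called with 9 libraries (adjusted p = 0.073, and 0.00015 without LNP replicate 3). Fbln2, an elastic fibre protein, was at 43.6 and 53.9 CPM in those 2 libraries and 239.7 CPM in replicate 3, which was above all bleomycin libraries (181, 183 and 188 CPM). Eln, the elastin gene, was at 6858, 7642 and 7949 CPM in bleomycin and 2597, 2743 and 6811 CPM in LNP libraries, with replicate 3 close to bleomycin.

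Among 23 matrix proteases and their inhibitors 7 were lower with 9 libraries and none higher. Leaving out LNP replicate 3 gave 14 lower and 1 higher, against 10.7% and 14% of all genes (1.87% lower with 9 libraries). Adamts1, a versican-cleaving protease, was at 394, 308 and 243 CPM in bleomycin and 106, 120.1 and 120 CPM in LNP libraries (log2 fold change -1.45 ± 0.18, adjusted p = 0.0039, or -1.48 ± 0.19, adjusted p = 0.0007). It was the only named matrix gene called in each of the 9 fits that left out a library. Timp1, an inhibitor of metalloproteinases, was at 457, 328 and 223 CPM in bleomycin and 98.04, 153 and 172 CPM in LNP libraries (log2 fold change -1.25 ± 0.30, adjusted p = 0.039, or -1.42 ± 0.32, adjusted p = 0.0099, 2 of 9 fits). Of 18 myofibroblast and contractile genes 1 was lower with 9 libraries, the actin regulator Cald1 (384, 357 and 317 CPM in bleomycin and 175, 183 and 196 CPM in LNP libraries, log2 fold change -0.93 ± 0.15, adjusted p = 0.013, or -0.97 ± 0.16, adjusted p = 0.0021, 6 of 9 fits), and 11 without LNP replicate 3. The shares of all genes called lower in the 2 fits were 1.87% and 10.7%. Acta2, smooth muscle actin, was at 783, 698 and 673 CPM in bleomycin and 329.5, 279 and 552 CPM in LNP libraries (adjusted p = 0.056 with and 0.00049 without LNP replicate 3). Its LNP replicates 1 and 2 lay below the 448, 564 and 584 CPM of control lung. Des and Tpm2, which skeletal muscle also expresses, were at 1292 and 925 CPM in LNP replicate 3 and are no measure of myofibroblasts there.

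TGF-beta signalling genes had 3 of 25 lower and none higher with 9 libraries, against 1.87% and 4.28% of all genes. In the fit without LNP replicate 3, 8 were lower and 2 higher, against 10.7% and 14%. The ligand gene Tgfb1 was at 204, 176 and 169.5 CPM in bleomycin and 149, 164 and 151 CPM in LNP libraries and was called in neither fit. Inhba, the activin A subunit, was at 68.1, 41.6 and 19.6 CPM in bleomycin and 6.25, 7.79 and 9.34 CPM in LNP libraries (log2 fold change -2.47 ± 0.43, adjusted p = 0.015, or -2.61 ± 0.49, adjusted p = 0.0042, 5 of 9 fits). Ccn2, a TGF-beta target in fibroblasts, was at 1523, 1471 and 1481 CPM in bleomycin libraries, 231 and 266 CPM in LNP replicates 1 and 2 and 1045 CPM in replicate 3 (log2 fold change -2.58 ± 0.13, adjusted p = 5.2e-06, without LNP replicate 3). Smad4, the shared signal transducer, was at 104, 91.02 and 88.5 CPM in bleomycin and 61.2, 65.7 and 73.1 CPM in LNP libraries (log2 fold change -0.50 ± 0.12, adjusted p = 0.042, or -0.57 ± 0.12, adjusted p = 0.0068, 2 of 9 fits). Genes of resting alveolar fibroblasts gave 1 higher of 14, Ces1d (159.7, 163 and 166 CPM in bleomycin and 428, 351 and 249 CPM in LNP libraries, log2 fold change 1.07 ± 0.19, adjusted p = 0.015, or 1.26 ± 0.13, adjusted p = 0.00017, 5 of 9 fits), with 8 higher and 1 lower without LNP replicate 3. Of all genes, 4.28% were higher with 9 libraries, and 14% were higher and 10.7% lower without LNP replicate 3. Tcf21, a transcription factor of resting alveolar fibroblasts, was at 63.3 and 54.6 CPM in LNP replicates 1 and 2 and 16.7 CPM in replicate 3, just below the 17.5, 21.9 and 23.9 CPM of bleomycin lung.

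**Figure D5:**
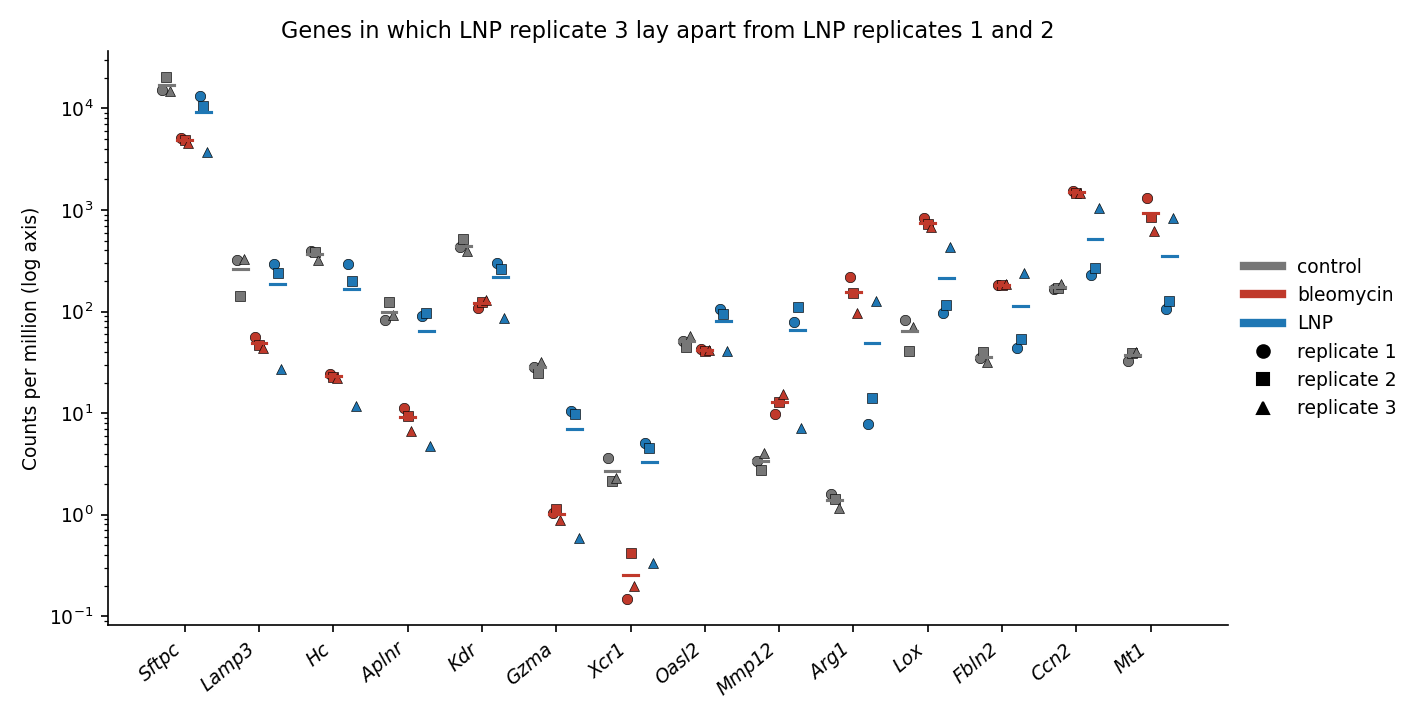
Level in CPM on a log axis for 14 genes, chosen after their values were seen, in each control (grey), bleomycin (red) and LNP (blue) library, with circles, squares and triangles for replicates 1, 2 and 3 and a bar at each group mean. LNP replicates 1 and 2 lie apart from the bleomycin libraries in every gene shown, and LNP replicate 3, the blue triangle, lies nearer to the bleomycin libraries, among them or beyond them.

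Immediate early genes switch on within minutes of growth factor or stress signals. They were lower for 9 of 18 members with 9 libraries and for 15 without LNP replicate 3, against 1.87% and 10.7% of all genes. No member was higher, and the median log2 fold change was -1.09, and -1.22 without LNP replicate 3. Fos, a subunit of the AP-1 factor, was at 234, 184 and 164 CPM in bleomycin and 18.1, 32.6 and 64.8 CPM in LNP libraries (log2 fold change -2.33 ± 0.38, adjusted p = 0.013, or -2.93 ± 0.26, adjusted p = 8e-05, 7 of 9 fits), with 30.1, 28.8 and 30 CPM in control libraries. Nr4a1, a nuclear receptor induced by stimulation, was at 134, 89.97 and 60.9 CPM in bleomycin and 20.2, 22.8 and 37.4 CPM in LNP libraries (log2 fold change -1.82 ± 0.33, adjusted p = 0.016, or -2.13 ± 0.32, adjusted p = 0.0013, 5 of 9 fits). Ier2 was at 206, 187 and 176 CPM in bleomycin and 85.1, 94.6 and 117 CPM in LNP libraries (log2 fold change -0.94 ± 0.16, adjusted p = 0.015, or -1.07 ± 0.15, adjusted p = 0.0009, 5 of 9 fits). Dusp1, a phosphatase that ends MAP kinase signalling, was at 578, 497 and 457 CPM in bleomycin and 66.9, 90.2 and 242 CPM in LNP libraries. The groups did not overlap in these 4 genes. Jun was the exception among AP-1 subunits, at 193, 204 and 209 CPM in bleomycin and 217, 216 and 172 CPM in LNP libraries with no call in either fit. Apold1, an endothelial early response gene, was at 61.7, 38.5 and 16.5 CPM in bleomycin and 2.71, 2.32 and 8.92 CPM in LNP libraries (log2 fold change -3.07 ± 0.59, adjusted p = 0.02, or -3.94 ± 0.49, adjusted p = 0.00053, 5 of 9 fits). Such genes also respond to handling of tissue, which the labels do not describe and whose part was not tested.

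Hypoxia and glycolysis genes gave no call among 18 with 9 libraries. An unadjusted p under 0.05 was reached by 6, against 5221 of all 20794 genes. Without LNP replicate 3, 10 were lower, against 10.7% of all genes. Eno1, a glycolytic enolase, was at 961, 898 and 867 CPM in bleomycin, 350.3 and 414 CPM in LNP replicates 1 and 2 and 829 CPM in replicate 3. The metal-binding protein genes Mt1 and Mt2 also had LNP replicate 3 at the bleomycin level. Mt1 was at 1307, 862 and 615 CPM in bleomycin and 105, 126 and 828 CPM in LNP libraries (log2 fold change -2.996 ± 0.29, adjusted p = 0.00014, without LNP replicate 3). Hmox1, the haem-degrading enzyme, was at 1518, 739.6 and 111 CPM in bleomycin and 82.3, 73.6 and 167 CPM in LNP libraries (log2 fold change -2.87 ± 0.73, adjusted p = 0.049, or -3.33 ± 0.82, adjusted p = 0.016, 2 of 9 fits), and bleomycin replicate 3 overlapped the LNP range. Haemoglobin varied in the same order within bleomycin lung, with Hba-a1 at 5549, 2352 and 339.6 CPM in bleomycin and 2537, 1349 and 387 CPM in LNP libraries, and its part in these values was not tested. No cell cycle or p53 target gene was called with 9 libraries. An unadjusted p under 0.05 was reached by 4 of 25 and 6 of 20 genes, against 5221 of all 20794. The fit without LNP replicate 3 called 3 cell cycle genes higher and 1 lower, and 3 p53 target genes lower and none higher, against 14% and 10.7% of all genes higher and lower. Mki67, a proliferation marker, was at 21.9, 28.1 and 29.2 CPM in bleomycin and 34.9, 28.1 and 14.97 CPM in LNP libraries. The p53 target Cdkn1a was at 790.4, 633 and 506 CPM in bleomycin and 283, 353 and 512 CPM in LNP libraries and was lower only without LNP replicate 3 (log2 fold change -1.01 ± 0.21, adjusted p = 0.0072).

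Ciliated cell genes were higher for 15 of 18 members with 9 libraries and for all 18 without LNP replicate 3, with a median log2 fold change of 1.07, and 1.21 without it. The shares of all genes called higher were 4.28% and 14%. All LNP values lay above all bleomycin values in 17 of the 18. The summed level was 929 to 1029 CPM in bleomycin and 1855, 1853 and 1006 CPM in LNP libraries, so that of replicate 3 lay within the bleomycin range. Foxj1, the master factor of motile cilia, was at 60.4, 54.2 and 48.6 CPM in bleomycin and 127, 132 and 95.5 CPM in LNP libraries (log2 fold change 1.12 ± 0.18, adjusted p = 0.013, or 1.26 ± 0.16, adjusted p = 0.00065, 8 of 9 fits). Hydin, a protein of the central axoneme pair, was at 3.74, 4.14 and 4.10 CPM in bleomycin and 13.6, 15.1 and 8.19 CPM in LNP libraries (log2 fold change 1.62 ± 0.23, adjusted p = 0.0077, or 1.85 ± 0.16, adjusted p = 6.7e-05, 8 of 9 fits). Ccdc153 was at 27.9, 28.7 and 27.8 CPM in bleomycin and 56.7, 49.6 and 48 CPM in LNP libraries (7 of 9 fits). LNP values lay above all bleomycin values in the 3 genes, and below all control values in Hydin and Ccdc153. Of 16 club and secretory cell genes 4 were higher with 9 libraries and 8 without LNP replicate 3, against 4.28% and 14% of all genes. Cyp2f2, a cytochrome P450 of club cells, was at 239, 287 and 349 CPM in bleomycin, 1986, 1208 and 499.7 CPM in LNP and 4467, 5625 and 5181 CPM in control libraries (log2 fold change 2.08 ± 0.41, adjusted p = 0.021, or 2.46 ± 0.23, adjusted p = 0.0001, 5 of 9 fits). Scgb1a1, the secretoglobin that defines club cells, was at 5318, 5179.5 and 5250.4 CPM in bleomycin and 9082, 5175 and 4520.2 CPM in LNP libraries and was called in neither fit, with only LNP replicate 1 above the bleomycin libraries.

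Alveolar type 2 genes, whose products form surfactant, split the LNP libraries. No member of 15 was called with 9 libraries, where 11 had an unadjusted p under 0.05, against 5221 of all 20794 genes. Without LNP replicate 3, 13 were higher and 1 lower, against 14% and 10.7% of all genes. Sftpc, surfactant protein C, was at 5148, 4928 and 4529.7 CPM in bleomycin, 13418 and 10479 CPM in LNP replicates 1 and 2 and 3759.9 CPM in replicate 3 (log2 fold change 1.30 ± 0.17, adjusted p = 0.00069, without LNP replicate 3). Lamp3, of the lamellar body membrane, was at 55.97, 46.5 and 43.5 CPM in bleomycin and 296, 239 and 27.3 CPM in LNP libraries (log2 fold change 2.46 ± 0.30, adjusted p = 0.00045, without LNP replicate 3). Hc, complement C5, was at 24.5, 22.8 and 22.1 CPM in bleomycin and 291, 199 and 11.8 CPM in LNP libraries (log2 fold change 3.41 ± 0.17, adjusted p = 5.2e-06, without LNP replicate 3). In these 3 genes replicates 1 and 2 were well above bleomycin and replicate 3 was below every bleomycin library. Chi3l1, a chitinase-like protein of alveolar epithelium and macrophages, was at 117, 104 and 97.3 CPM in bleomycin and 1121, 939.7 and 75.7 CPM in LNP libraries, with the same order. The lower member, the lysosomal protease gene Ctsh, was at 1603, 1505 and 1355 CPM in bleomycin and 578, 716 and 1182 CPM in LNP libraries.

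Genes of the transitional alveolar state, in which type 2 cells flatten toward type 1 after injury, were lower for 4 of 16 members with 9 libraries. Without LNP replicate 3, 11 were lower and 1 higher, against 10.7% and 14% of all genes (1.87% lower with 9 libraries). Krt7 was at 1689.8, 1527 and 1360.1 CPM in bleomycin and 782, 829.98 and 854 CPM in the LNP group (log2 fold change -0.89 ± 0.17, adjusted p = 0.019, or -0.92 ± 0.17, adjusted p = 0.0047, 5 of 9 fits). Plaur, the urokinase receptor, was at 367, 233 and 139 CPM in bleomycin and 61.7, 77.1 and 99.7 CPM in LNP libraries (log2 fold change -1.63 ± 0.32, adjusted p = 0.022, or -1.82 ± 0.34, adjusted p = 0.0044, 5 of 9 fits). Here replicate 3 stood with the other LNP libraries, outside the bleomycin range. Alveolar type 1 genes had 3 of 14 higher and 2 lower without LNP replicate 3, against 14% and 10.7% of all genes. With 9 libraries none was higher and 2 were lower, against 1.87% of all genes, Gprc5a (2388, 2072 and 1844 CPM in bleomycin and 1096, 1197 and 1238 CPM in LNP libraries, log2 fold change -0.84 ± 0.17, adjusted p = 0.023, or -0.87 ± 0.17, adjusted p = 0.0058, 5 of 9 fits) and the tetraspan gene Emp2 (2612, 2366 and 2255 CPM in bleomycin and 1478, 1653 and 1434 CPM in LNP libraries, 3 of 9 fits). Ager, the receptor that marks type 1 cells, was at 3388, 3233 and 2999 CPM in bleomycin and 3221, 3254 and 2245 CPM in LNP libraries and was called in neither fit.

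Endothelial genes moved in both directions, and the rises appeared only without LNP replicate 3. With 9 libraries 5 of 23 were lower and none higher, against 1.87% and 4.28% of all genes. Without LNP replicate 3, 6 were lower and 12 higher, against 10.7% and 14%. Lyve1, a hyaluronan receptor of lymphatic vessels that some macrophages share, was at 901, 569 and 349.5 CPM in bleomycin and 149, 167 and 211 CPM in LNP libraries (log2 fold change -1.79 ± 0.31, adjusted p = 0.015, or -1.93 ± 0.33, adjusted p = 0.0027, 6 of 9 fits). Vwf, von Willebrand factor of larger vessels, was at 1217, 1280.4 and 1359 CPM in bleomycin and 744, 788 and 969 CPM in LNP libraries (log2 fold change -0.62 ± 0.16, adjusted p = 0.047, or -0.74 ± 0.14, adjusted p = 0.0046). Gpihbp1, a capillary lipase anchor, was at 362, 359 and 361 CPM in bleomycin and 173, 154 and 268 CPM in LNP libraries (1 of 9 fits). LNP and bleomycin values did not overlap in these 3 genes. Aplnr, the apelin receptor of general capillary cells, was at 11.3, 9.37 and 6.67 CPM in bleomycin, 90.8 and 97.5 CPM in LNP replicates 1 and 2 and 4.79 CPM in replicate 3 (log2 fold change 3.37 ± 0.23, adjusted p = 3.2e-05, without LNP replicate 3). Kdr, the main VEGF receptor, was at 108, 126 and 131 CPM in bleomycin and 299, 265 and 87.1 CPM in LNP libraries (log2 fold change 1.22 ± 0.15, adjusted p = 0.00043, without LNP replicate 3). In both, replicate 3 lay below all bleomycin libraries. Pecam1, common to endothelium, was at 661, 619 and 604 CPM in bleomycin and 833, 802 and 453 CPM in LNP libraries.

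Some rises were largest in LNP replicate 3, beside its muscle and squamous transcripts. Of the 12 largest rises called in both fits, Rptn, Mb, Mybpc2 and Nccrp1 (5 of 9 fits) are genes of squamous epithelium or striated muscle. Mybpc2, a fast muscle myosin-binding protein, was at 1.67, 1.40 and 1.89 CPM in bleomycin, 14.4 and 18.97 CPM in LNP replicates 1 and 2 and 149.6 CPM in replicate 3 (log2 fold change 5.204 ± 0.86, adjusted p = 0.013, or 3.34 ± 0.22, adjusted p = 2.9e-05, 7 of 9 fits). Mb, myoglobin, was at 1.47, 2.95 and 5.12 CPM in bleomycin and 11.9, 10.6 and 493 CPM in LNP libraries (3 of 9 fits). Rptn, a cornified envelope protein, was at 0.0655, 0.0621 and 0.0907 CPM in bleomycin and 0.694, 0.327 and 20.9 CPM in LNP libraries (3 of 9 fits). In all of them LNP replicates 1 and 2 also lay above bleomycin, which the naming rule required. Over the skeletal muscle list 1 of 13 tested genes was higher with 9 libraries, against 4.28% of all genes. In the fit without LNP replicate 3, 3 were higher and 3 lower, against 14% and 10.7%. The summed level was 380.05 to 482 CPM in bleomycin and 267 to 13307 CPM in LNP libraries. The squamous list had 2 of 12 higher, Krt5 (2 of 9 fits) and Calml3 (7 of 9 fits), with summed levels of 13.4 to 17 and 20.9 to 1977 CPM. Leaving out 1801 muscle, squamous and other genes dominated by LNP replicate 3 gave 962 higher and 430 lower genes. Pla2g2d, a secreted phospholipase of lymphoid tissue, was at 0, 0.248 and 0.227 CPM in bleomycin and 1.58, 2.46 and 17.8 CPM in LNP libraries (5 of 9 fits), again with the highest value in replicate 3.

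Fat cell genes were higher for 3 of 10 members with 9 libraries and for 5 without LNP replicate 3, against 4.28% and 14% of all genes. Car3, a carbonic anhydrase abundant in fat, was at 0.197, 0.993 and 1.21 CPM in bleomycin, 14.7, 17.1 and 19.9 CPM in LNP and 65.3, 70.1 and 78.6 CPM in control libraries (log2 fold change 4.42 ± 0.47, adjusted p = 0.0016, or 4.30 ± 0.44, adjusted p = 0.00017). Adipoq, which defines fat cells, was at 0.377, 1.77 and 1.54 CPM in bleomycin and 3.10, 2.73 and 8.66 CPM in LNP libraries and was called in neither fit. Whether the lungs differed in attached fat was not tested. Cardiac muscle, nerve and erythroid lists had no call with 9 libraries. An unadjusted p under 0.05 was reached by 3 of 16, 1 of 11 and 0 of 10 genes, against 5221 of all 20794.

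Of the genes called only without LNP replicate 3, the largest falls were in Tat, Pappa, Serpinb9b, Rasd1, Nrip3 and Vsig4, whose control levels were all at or below 6.07 CPM. Tat, tyrosine aminotransferase, was at 39.3, 39.03 and 42.9 CPM in bleomycin, 0.694 and 0.704 CPM in LNP replicates 1 and 2 and 30.3 CPM in replicate 3 (log2 fold change -5.85 ± 0.24, adjusted p = 2.3e-06, without LNP replicate 3). Pappa, a protease that frees insulin-like growth factor, was at 37.9, 31.5 and 24.8 CPM in bleomycin and 1.42, 1.59 and 19.4 CPM in LNP libraries. Serpinb9b, a granzyme-type serpin, was at 71.97, 77.1 and 81.9 CPM in bleomycin and 2.64, 4.19 and 46.6 CPM in LNP libraries. Rasd1, a small GTPase, was at 93.5, 58.9 and 34.8 CPM in bleomycin and 3.30, 2.27 and 34.8 CPM in LNP libraries. Nrip3 was at 22.8, 17.9 and 13.8 CPM in bleomycin and 0.652, 1.57 and 8.24 CPM in LNP libraries. Vsig4, a complement receptor of macrophages, was at 8.70, 8.27 and 10.3 CPM in bleomycin and 0.694, 0.262 and 7.23 CPM in LNP libraries. The naming rule required LNP replicates 1 and 2 to lie below every bleomycin library in all 6 genes. It also took only genes not called with replicate 3, which lay close to or below the lowest bleomycin library. The largest rises of this kind were Gzma, Aplnr, Hc and Chi3l1, given above, with Slc26a4 and Slc7a10. Slc26a4, the anion exchanger pendrin, was at 4.08, 3.20 and 2.39 CPM in bleomycin and 31.4, 36.1 and 2.51 CPM in LNP libraries, and LNP replicates 1 and 2 lay well above the 3.72, 6.15 and 2.30 CPM of control lung (log2 fold change 3.39 ± 0.36, adjusted p = 0.00022, without LNP replicate 3).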

How the data were processed

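RNA of whole mouse lung was purified as poly(A) RNA and made into strand-marked libraries, per the labels' protocols. The authors deposited gene counts and FPKM in one table. fastp, StringTie and edgeR are named in the submitters' processing notes, with no aligner or genome build, and whether counting used strand is not stated. The deposited counts were tested with edgeR 4.0.16 (filterByExpr, TMM, quasi-likelihood F test, 9 libraries in one fit, contrast LNP minus bleomycin) in R 4.3.3, with Benjamini-Hochberg adjustment and a threshold of 0.05. The test was repeated without LNP replicate 3. Of 32671 genes, 11877 were left out as low. The authors' FPKM entered only alternatives, tested with limma 3.58.1 on log2(FPKM + 1) or log2(FPKM + 0.1). DESeq2 1.42.0 was another alternative. SE is the log2 fold change divided by the root of F.

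On simulated counts at these depths the 9-library fit recovered 23% of genes changed 2-fold and 55% of those changed 4-fold, with 1 false call, and the fit without LNP replicate 3 recovered 32% and 76%, with 5 false calls. In each simulation 100 genes were changed 2-fold and 100 4-fold, a smaller share than was called in the data. LNP replicate 3 was drawn from the same means as the other LNP libraries. Recovery and false calls in the data can therefore differ. Totals of 56047830 to 69404903 counts per library leave counting error small for most genes. Promoters came from the RefSeq table (GRCm38.p6).

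Members and gene lists were chosen with earlier results of these data known. The naming rule took the 12 largest rises and 12 largest falls called in both fits without overlap and with at least 5 CPM, the 6 largest rises and falls in CPM, up to 4 members per list called with 9 libraries and up to 3 called only without LNP replicate 3, all STING pathway genes, the 6 largest rises and falls called only without LNP replicate 3, and the 6 genes most specific to that library. Genes named outside it, after their values were seen, were Adipoq, Ager, Apoe, C1qb, Cd4, Ciita, Cmpk2, Col14a1, Col1a1, Ctsh, Cxcl10, Dusp1, Eln, Foxp3, Gpnmb, Hba-a1, Ifit3, Ifng, Ighg1, Il6, Irf9, Jun, Kdr, Lamp3, Marco, Mki67, Mmp9, Oas1g, Oas3, Pecam1, Pparg, Scgb1a1, Sdc1, Sftpc, Tgfb1, Tnf, Trem2, Txndc5, Vwf and Xbp1. A few genes that the rule or the lists select are not reported here.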

Additional observations from a re-analysis of the deposited data

How the results depend on the processing

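Counts are given as genes higher and lower in LNP lung, 891 and 389 with 9 libraries. DESeq2 gave 2038 and 1178, with 15 interferon-stimulated genes higher (6 in the edgeR fit) and 14 collagens lower (6 in the edgeR fit). Without a filter on low counts 197 genes and 3 collagens were lower. Fitting only the 6 libraries gave 218 and 100, with 10 T cell genes higher, 7 neutrophil genes lower, 1 interferon-stimulated gene higher and 1 collagen lower. With log2(FPKM + 1) and no filter the counts were 403 and 136, with 3 interferon-stimulated genes and 1 collagen. A minimum fold of 1.5 left 157 and 30, with 11 T cell genes, 6 neutrophil genes, 0 interferon-stimulated genes and 0 collagens. Over the fits that left out 1 library the counts ran from 84 to 2987 and from 18 to 2297, B cells from 15 to 19, T cells from 7 to 21, neutrophils from 6 to 13, interferon-stimulated genes from 0 to 22, collagens from 0 to 15 and the log2 fold change of Sting1 from 0.09 to 0.36. Without LNP replicate 3, DESeq2 gave 3337 and 2980. The labels give the groups the same replicate numbers. Deviations from the group means correlated at 0.000679, -0.0118 and 0.0400 between bleomycin and LNP libraries of the same number. Those of different numbers ran from -0.0737 to 0.0787. With means of 3 libraries and LNP replicate 3 lying apart, these values cannot decide whether the numbers pair the libraries. The replicate block gave 346 and 86, with 1 interferon-stimulated gene and 1 collagen. Some named genes changed direction, and the cause was not tested. Cxcl13, at 0.68 with 9 libraries, was at -0.11 with the replicate block, -0.16 with log2(FPKM + 1) with or without the filter and -0.20 with log2(FPKM + 0.1). Siglecf was at -0.038 with the block and -0.023 with log2(FPKM + 0.1), and Irf7 at -0.0074 with the block. Over the fits leaving out 1 library, log2 fold changes ran from -1.69 to 6.51 for Actn3, -6.51 to 7.15 for Tgm3, -1.82 to 6.01 for Tnnt3, -0.46 to 2.16 for Ahsp, -1.17 to 1.21 for Tpm2, -0.77 to 0.90 for Des, -1.54 to 1.16 for Cxcl13, -0.0044 to 0.59 for Itgb6, -0.022 to 0.46 for Cldn18, -0.48 to 0.023 for Tmem203, -1.57 to 0.10 for Bnip3, -0.16 to 0.68 for Siglecf, -0.59 to 0.13 for Myh7 and -0.38 to 0.27 for Irf7.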
